A study of Mus musculus with 2 samples.

Results

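Lrrc15-positive cells were those with at least 2 UMIs (unique molecular identifiers, each standing for 1 captured transcript) of Lrrc15, under 10% mitochondrial UMIs, at least 2000 UMIs in all, 0 Pax7 UMIs and fewer than 5 UMIs of the tendon genes Tnmd, Chad and Kera together. The rule found 240 of the 4954 cells in both libraries, 239 in the mechanical overload (MOV) library and 1 in the sham library. They were compared inside the MOV library with 209 Lrrc15-negative Pdgfra cells, which had 0 Lrrc15 UMIs, at least 2 Pdgfra UMIs and 0 Pax7 UMIs, and with 156 tendon-marker cells, which had at least 5 UMIs of the 3 tendon genes and 0 Pax7 UMIs. Because Lrrc15, Pax7, Pdgfra and the tendon genes chose the cells, their levels are given as a description.

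Both libraries came from plantaris muscle of 26-week-old Pax7rtTA; TRE-H2B-GFP mice, in which the Pax7 promoter drives a doxycycline-dependent activator of a nuclear GFP. All mice, controls included, had taken doxycycline at 2 mg/mL in sweetened drinking water for 2 weeks. Sham mice had an incision and a probed tendon, while MOV mice had synergist ablation, which removes part of the gastrocnemius and soleus so that the plantaris carries their load, with cells taken after 5 days. Cells were sorted as VCAM-positive and as negative for CD31, CD45 and SCA1, a gate meant for muscle stem cells (MuSCs). The labels speak of a mouse and the methods of several per condition, so how many animals the cells of each library came from was not resolved here.

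Fibroblasts of muscle lie between the fibers, where they hold the extracellular matrix in order and signal to MuSCs. Under load, injury or in tumors some take on an activated state with more matrix secretion and, in myofibroblasts, smooth muscle type actin filaments that let the cell pull on its surroundings. LRRC15 is a membrane protein with leucine-rich repeats that is known as a marker of such TGF-β-responsive fibroblasts.

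With 1 library per condition there was no spread between replicates and no test was made. Ratios and shares carry 95% counting intervals, which cover counting error only, and cells of a library are not replicates. The sham library held 1100 cells and 7302661 UMIs, of which 578 cells passed the mitochondrial and UMI limits, and the MOV library held 3854 cells and 88498487 UMIs, of which 2754 passed. The libraries shared 44 cell barcodes, and at each of them the shallower cell held 0.348% to 4.32% of the UMIs of the deeper one. Of the Lrrc15-positive cells, 2 in MOV had a shared barcode, with 76773 and 139148 UMIs against at most 953 in sham, and the single sham cell had 35341 UMIs in sham and 694 at the same barcode in MOV. Leaving out shared barcodes gave 237 cells in MOV and 0 in sham. No cell of the classes compared here had Xist UMIs without Y-linked UMIs.

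Promoters are shown for the gene that defined the cells and for Acta2 and Myl9, a pair of contractile genes on which the results below turn. Each line gives the 250 bases before the transcription start, 5′ to 3′ on the gene's strand, from RefSeq (GRCm38.p6). Lrrc15 lies at chr16:30283255-30283504 on the minus strand, Acta2 at chr19:34255374-34255623 on the minus strand and Myl9 at chr2:156775214-156775463 on the plus strand. Capitals mark a CArG box, the letters bound by serum response factor, and CATTCC or its reverse complement GGAATG, the letters bound by TEAD factors, searched on both strands. The CArG box was searched as 10 letters (CC, 6 letters that are each A or T, then GG), and boxes with a mismatch were neither searched nor marked.
Lrrc15: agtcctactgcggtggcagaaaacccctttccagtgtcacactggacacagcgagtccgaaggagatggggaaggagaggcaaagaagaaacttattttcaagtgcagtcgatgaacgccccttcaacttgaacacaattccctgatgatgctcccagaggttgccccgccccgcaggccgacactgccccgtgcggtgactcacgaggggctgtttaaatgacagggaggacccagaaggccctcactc
Acta2: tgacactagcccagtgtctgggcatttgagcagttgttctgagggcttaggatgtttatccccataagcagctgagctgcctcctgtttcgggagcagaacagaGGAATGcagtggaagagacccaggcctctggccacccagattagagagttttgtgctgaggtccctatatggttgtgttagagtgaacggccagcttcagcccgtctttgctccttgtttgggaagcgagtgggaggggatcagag
Myl9: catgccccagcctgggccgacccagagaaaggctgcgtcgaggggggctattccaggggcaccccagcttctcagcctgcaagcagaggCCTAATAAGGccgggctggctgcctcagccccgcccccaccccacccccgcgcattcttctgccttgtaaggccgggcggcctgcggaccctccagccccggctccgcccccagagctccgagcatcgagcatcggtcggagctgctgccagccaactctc
Myl9 held a CArG box whose first base lay 161 bases before the start, and Acta2 held GGAATG at 146 bases before the start. Neither set of letters was found in the Lrrc15 window. Among 27025 promoters in the table, 378 (1.40%) held a CArG box and 3414 (12.6%) the TEAD letters. Of the 10 contractile genes that were at least 2-fold higher in the Lrrc15-positive cells, 8 had an entry, 2 of them (Cnn2 and Myl9) with a CArG box and 2 (Acta2 and Tpm1) with the TEAD letters. Of the other 10 genes of that list, 1 held a CArG box and 6 (60.0%) the TEAD letters. Tagln and Actg2 had no entry.

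The first comparison asked how common these cells were with and without load. They made up 8.68% of the 2754 MOV cells that passed the limits (exact binomial interval 7.65 to 9.79) and 0.173% of the 578 sham cells (0.00438 to 0.960). Lrrc15-positive cells were 53.3% of all cells of the Lrrc15-positive and Lrrc15-negative Pdgfra classes in MOV (48.6 to 58.0), against 1 of 25 in sham. The MOV cells were deeper, with a median of 24303 UMIs against 6887, and a rule of at least 2 UMIs is met more easily in a deep cell. After every cell was thinned to 2000 UMIs, 92 of 2754 MOV cells (3.34%, interval 2.70 to 4.08) and 0 of 578 sham cells held an Lrrc15 UMI, where a count of 0 allows a sham share of up to 0.519% by 3 counts and 0.636% by the exact interval. Without thinning the same counts were 430 and 3. In the 798 MOV cells with at least 2 Pax7 UMIs and 0 Pdgfra UMIs, called Pax7 cells below, 0.125% held an Lrrc15 UMI after thinning. The Lrrc15-positive cells, which were chosen for Lrrc15, stood at 36.8%. The Pdgfra limit removed Pax7 cells with Pdgfra RNA, so the low share could be partly set by the choice of cells.

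**Figure D1:**
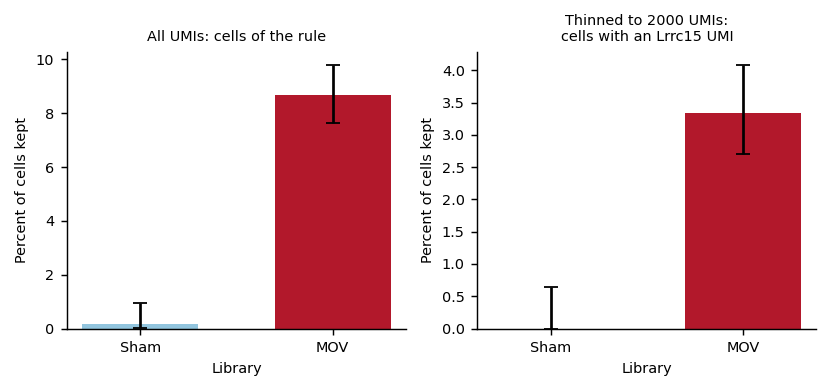
Percent of cells (y axis) in the sham and MOV libraries (x axis) that met the full rule (left) and that held an Lrrc15 UMI after thinning to 2000 UMIs (right), with exact 95% binomial intervals that cover counting error only. The MOV bars stand at 8.68% and 3.34% and the sham bars at 0.173% and 0.

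The 298 MOV cells with at least 2 Lrrc15 UMIs lost 17 to the Pax7 limit and 42 to the tendon limit. The remaining 239 cells held 10256850 UMIs, with medians of 42516 UMIs and 5675 detected genes, against a median of 29427 UMIs in the Lrrc15-negative Pdgfra cells. Lrrc15 ranged from 2 to 50 UMIs per cell with a median of 6, or from 24.1 to 1987 CPM (UMIs of a gene scaled by the total to counts per 1e6) with a median of 161. Pdgfra, the receptor that marks fibro-adipogenic cells, was at 0 UMIs in 77 of them, at 1 in 48 and at 2 or more in 114 (47.7%). The Pdgfra limit that defined the comparison cells was thus met by a minority of the Lrrc15-positive cells.

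The remaining 4 markers of the activated fibroblast label, which the rule did not use, were higher in Lrrc15-positive cells than in Lrrc15-negative Pdgfra cells. Over all 12002 genes with at least 20 UMIs in both classes together, 3.3% were at least 2-fold higher and 7.1% at least 2-fold lower in the Lrrc15-positive cells, with a median log2 ratio of -0.02, and all 4 markers were among the higher ones. Thbs2, a thrombospondin of the matrix, stood at 1024 CPM against 277 (log2 ratio 1.89, interval 1.82 to 1.96). Inhba, which encodes a subunit of activin A, stood at 453 CPM against 176 (1.36, 1.27 to 1.45). Cthrc1, a secreted protein of matrix-producing fibroblasts, stood at 2409 CPM against 1087 (1.15, 1.11 to 1.19), and the small proteoglycan Aspn at 2163 CPM against 1027 (1.07, 1.04 to 1.11). The markers were not exclusive: Cthrc1 was found in 95.7% of the Lrrc15-negative Pdgfra cells of MOV, and the difference was one of level. Among the 114 Lrrc15-positive cells that also met the Pdgfra limit, Cthrc1 (log2 ratio 0.97) and Aspn (0.76) were within 2-fold.

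Cell by cell, Cthrc1 ran from 0 to 10450 CPM with a median of 2313 in the Lrrc15-positive cells, against a median of 733 in the comparison cells. Thbs2 ran from 0 to 6589 CPM with a median of 1012, against a median of 171. The upper quartile of the comparison cells for Cthrc1 (1618 CPM) lay just above the lower quartile of the Lrrc15-positive cells (1435), so the classes overlapped. Inhba was more uneven, with a median of 170 CPM, a highest cell at 12027 CPM and 25.3% of all its UMIs in 5 cells. Thinned to 2000 UMIs, 94.1% of Lrrc15-positive cells held a Cthrc1 UMI, against 66.0% of Lrrc15-negative Pdgfra cells and 4.39% of MOV Pax7 cells.

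**Figure D2:**
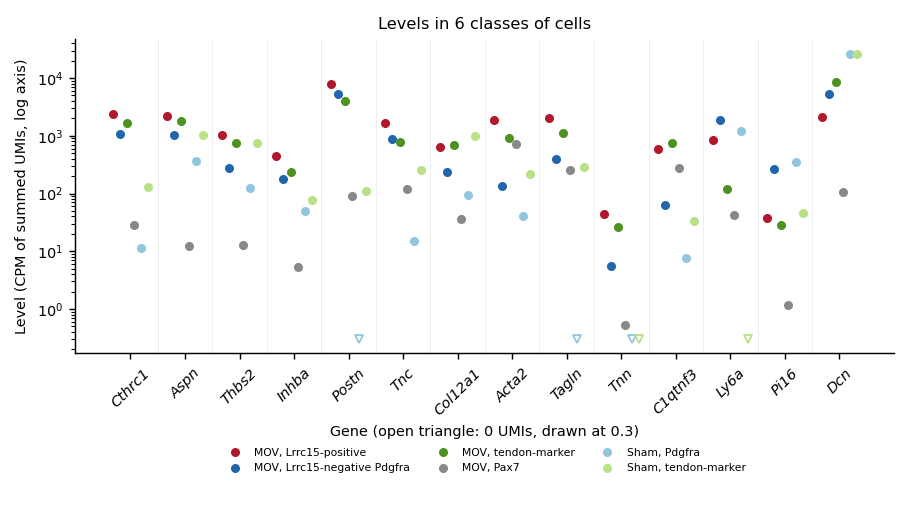
Level in CPM of summed UMIs (y axis, log scale) of 14 genes (x axis) in 6 classes of cells, with 1 point per class and an open triangle where a class held 0 UMIs. Cthrc1, Aspn, Thbs2, Inhba, Acta2 and Tagln were highest in the Lrrc15-positive cells of MOV, and Dcn was highest in the sham classes.

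Contractile genes stood above the comparison cells as a group. Of 20 genes of smooth muscle type contraction and the actin cytoskeleton, 19 were measured, 10 were at least 2-fold higher, 0 were lower and the median log2 ratio was 1.09, beside 3.3% of all genes higher. Acta2, the α-smooth muscle actin that defines myofibroblasts, stood at 1853 CPM against 133 (log2 ratio 3.80, interval 3.70 to 3.90). Tagln, an actin-binding protein of smooth muscle, stood at 2029 CPM against 392 (2.37, 2.31 to 2.43). The regulatory myosin light chain Myl9 stood at 370 CPM against 44.8 (3.05, 2.88 to 3.22). UMIs of Acta2, Tagln and Myl9 were found in 94.6%, 92.1% and 84.9% of Lrrc15-positive cells and in 71.8%, 65.6% and 50.7% of comparison cells.

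Actg2, a γ-actin of smooth muscle, and Cnn1, a calponin that binds actin and myosin, had the largest ratios. Actg2 gave 763 UMIs against 4 (log2 ratio 6.96, 5.60 to 8.84) and Cnn1 725 against 5 (6.56, 5.34 to 8.19). They were found in 29.7% and 31.0% of the Lrrc15-positive cells, and 5 cells held 39.3% and 36.6% of their UMIs. Acta2 and Actg2 are near-identical actins, so the split of reads between them is uncertain. The tropomyosins Tpm1 (2.21) and Tpm2 (2.13), which lie along the actin filament, Cnn2 (1.72), the LIM protein Csrp1 (1.66) and α-actinin Actn1 (1.09) were also past 2-fold by log2 ratio. Vinculin (Vcl, 0.98), filamin A (Flna, 0.89) and the non-muscle myosins Myh10 (0.87) and Myh9 (0.55), which nearly every adherent cell uses, were nearer to the comparison cells, and Tagln2 (0.03) was level with them.

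Acta2 varied widely among the Lrrc15-positive cells, from 0 to 9708 CPM, with quartiles of 148, 877 and 2526 CPM, while the comparison cells had a median of 52.1. Thinned to 2000 UMIs, 62.3% of Lrrc15-positive cells held an Acta2 UMI (55.9 to 68.5), against 25 of 209 Lrrc15-negative Pdgfra cells (7.89% to 17.1%). Acta2 was not particular to fibroblasts here, since 56.9% of MOV Pax7 cells also held an Acta2 UMI after thinning. Cnn1 was rarer after thinning. It was found in 7.95% of Lrrc15-positive cells and 0 of 209 Lrrc15-negative Pdgfra cells (interval up to 1.75%). Tendon-marker cells stood at 2.56% and Pax7 cells at 0.627%. Markers of mural cells, the contractile cells of vessel walls, were at low levels: the 6 summed to 13.9 CPM in the Lrrc15-positive cells, 10.3 in the comparison cells and 79.4 in the tendon-marker cells. Rgs5, a defining pericyte gene, was at 4.39 CPM against 4.33, and Myh11, a defining smooth muscle gene, gave 29 UMIs against 4 (log2 ratio 2.24). With Mcam (26 UMIs against 5, 1.76), 2 of the 4 measured mural markers were at least 2-fold higher and 0 lower. These counts stand beside 3.3% and 7.1% of all genes. Of the UMIs in Lrrc15-positive cells, 5 cells held 58.6% for Myh11 and 80.8% for Mcam. The part of mural RNA in the contractile genes was not tested.

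**Figure D3:**
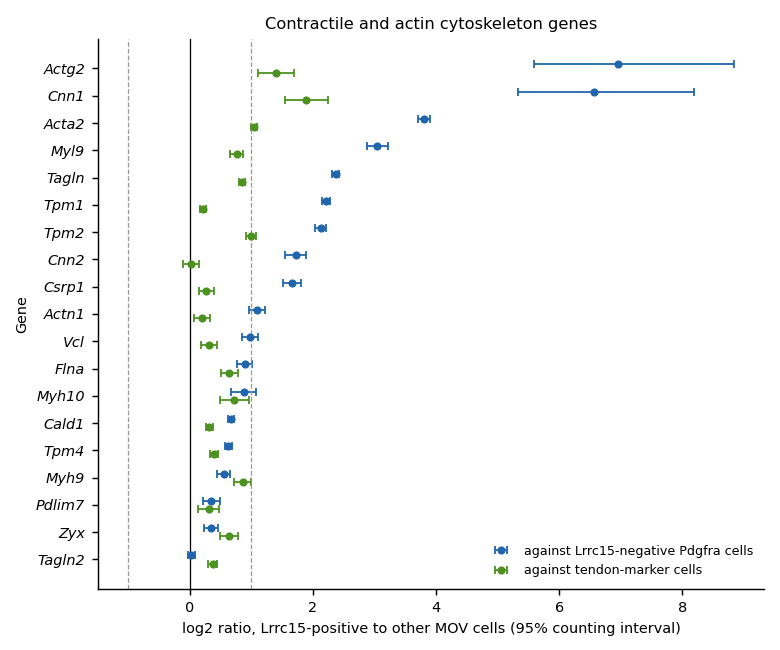
Log2 ratio of the level in Lrrc15-positive cells to that in the Lrrc15-negative Pdgfra cells (blue) and in the tendon-marker cells (green) of MOV (x axis) for 19 contractile and actin cytoskeleton genes (y axis), with 95% counting intervals and dashed lines at 2-fold. All 19 lay above 0 against both classes, and 10 were past 2-fold against the Pdgfra cells.

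Contractile levels went with Lrrc15 among the cells themselves. The Lrrc15-positive cells comprised 40 cells with 2 Lrrc15 UMIs, 74 with 3 to 5, 63 with 6 to 10 and 62 with over 10. Acta2 stood at 786, 951, 2023 and 3110 CPM in these 4 sets. The 96 cells just outside the rule, with 1 Lrrc15 UMI, stood at 376 CPM, between the 133 CPM of the comparison cells and the 786 CPM of the cells just inside. The summed contractile list followed the same order, from 4852 CPM with 1 UMI through 7375, 7447 and 10753 to 15839 CPM with over 10. Cnn1 gave 3.09, 5.68, 24.1, 34.7 and 177 CPM over the same 5 sets, and Actg2 13.9, 11.4, 26.4, 64.7 and 160. Depth also differed between the sets, with a median of 34948 UMIs for 1 Lrrc15 UMI and 47335 for over 10, and its part was not tested. The cells with 1 UMI had no Pdgfra limit and held RNA of other cell types. Their immune, mural and myogenic lists summed to 316, 68.0 and 206 CPM, against 27.7, 10.7 and 68.9 with 2 UMIs. The part of this RNA in Acta2 was not tested.

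Resting fibroblast genes ran the other way. Ly6a, which encodes SCA1, stood at 1557, 943, 1481, 748 and 182 CPM over the 5 sets, and Pi16, a marker of adventitial fibroblasts, at 116, 44.0, 85.4, 10.8 and 7.09. The cells with 2 and with 3 to 5 UMIs were out of order for both genes. Pdgfra itself, by rule 189 CPM in the comparison cells, stood at 110, 93.1, 79.4, 45.5 and 33.2 CPM. In sets by Pdgfra, Acta2 was at 2651 CPM in Lrrc15-positive cells with 0 Pdgfra UMIs, 2016 with 1 and 1414 with 2 or more. Depth rose along these sets, from a median of 34816 UMIs with 0 to 49200 with 2 or more. Its part was not tested.

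**Figure D4:**
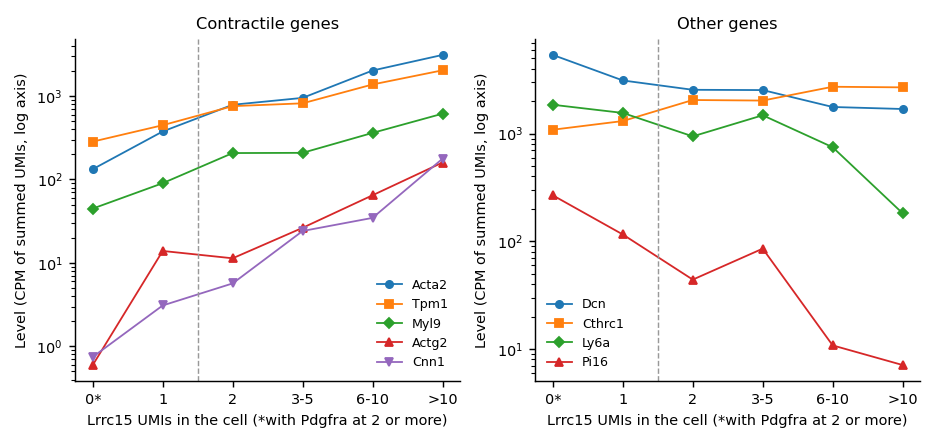
Level in CPM of summed UMIs (y axis, log scale) of contractile genes (left) and of 4 other genes (right) in MOV cells grouped by Lrrc15 UMIs (x axis), where 0 stands for the Lrrc15-negative Pdgfra cells and the dashed line marks the rule. Acta2 stood at 133, 376, 786, 951, 2023 and 3110 CPM from left to right, while Pi16 went from 267 to 7.09 CPM.

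Correlations across the 239 Lrrc15-positive cells are a description, since the cells share a library and a depth range and each CPM value carries its cell's total. Spearman's rho was 0.85 between Acta2 and Myl9, 0.82 between Acta2 and Tpm2 and 0.77 between Acta2 and Tagln. Ly6a opposed them, with rho of -0.61 with Tpm1 and -0.55 with Acta2. Lrrc15 went most closely with Thbs2 (0.59), and with Acta2 at 0.38. Acta2 and Postn did not vary together (0.03). Lrrc15 in CPM gave -0.39 with total UMIs, Postn -0.35 and Acta2 0.08.

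Matrix genes differed less than contractile genes. For their counts, 3.3% of all genes were higher and 7.1% lower. Of 18 fibrillar and associated collagens, 17 were measured, and Col12a1, a collagen that bridges fibrils, was higher (634 CPM against 233, log2 ratio 1.45, interval 1.37 to 1.53) while Col11a2 was lower with 12 UMIs against 20. Col1a1, the main chain of type I collagen, stood at 10918 CPM against 7420 (0.56), and Col3a1 of type III collagen at 11391 against 14614 (-0.36). The balance of Col1a1 and Col3a1 thus differed between the classes while both were at high levels in every cell of each. Collagen processing enzymes were close to level, with 1 of 27 higher (Adamts14), 2 lower and a median log2 ratio of 0.13, which included the prolyl hydroxylase P4ha2 (0.86), the collagen chaperone Serpinh1 (0.38) and lysyl oxidase Lox (-0.16).

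Matricellular proteins, which tune how cells grip the matrix, split: 4 of 26 were higher and 4 lower, beside 3.3% and 7.1% of all genes. Tnn, tenascin W, gave 453 UMIs against 37 (log2 ratio 3.00, interval 2.51 to 3.52), and 0 UMIs in the 24 sham Pdgfra cells. Tgfbi, a TGF-β-induced matrix protein, stood at 172 CPM against 52.9 (1.70), and Smoc1 gave 75 UMIs against 11 (2.15). Tenascin C (Tnc) stood at 1693 CPM against 889 (0.93) and periostin (Postn) at 7796 against 5361 (0.54), both below 2-fold. Sparcl1 (-1.53), the hyaluronan synthase Has1 (-1.50), Smoc2 (-1.35) and Fbln1 (-1.09) were lower.

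Small proteoglycans and elastic fiber proteins leaned down, with 2 higher (Aspn and Fbn2, at 1.58) and 5 lower of 17 that the rule did not use. The shares over all genes were 3.3% and 7.1%. Decorin (Dcn), which coats collagen fibrils and binds TGF-β, stood at 2090 CPM against 5383 (log2 ratio -1.36), lumican (Lum) at 382 against 1105 (-1.53) and elastin (Eln) at 42.1 against 131 (-1.64). Basement membrane genes were lower together: 6 of 12 were at least 2-fold lower and 0 higher, beside 7.1% of all genes lower. The type IV collagen chains Col4a1 (154 CPM against 759, -2.30) and Col4a2 (77.4 against 373, -2.27) led them, with Lama2 (-1.52), Col15a1 (-1.50) and Nid2 (-1.33). Col15a1 was at -0.96 in Lrrc15-positive cells that also met the Pdgfra limit. Col4a1 was found in 54.4% of Lrrc15-positive and 93.8% of comparison cells.

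Of 28 proteases and inhibitors, 3 were higher and 6 lower, beside 3.3% and 7.1% of all genes. Pappa, a protease that frees IGF from its binding proteins, stood at 57.7 CPM against 19.6 (log2 ratio 1.56), the membrane protease Adam19 at 47.3 against 18.5 (1.35), and Mmp9, a gelatinase, gave 53 UMIs against 7 (2.30). The aggrecanases Adamts4 (-1.18) and Adamts5 (-1.11), Mmp19 (-1.05) and stromelysin Mmp3 (-1.85) were lower. In Lrrc15-positive cells that also met the Pdgfra limit, Adamts4 (-0.96), Adamts5 (-0.67) and Mmp19 (-0.73) were within 2-fold. Mmp13, a collagenase, gave 33 UMIs against 760 (-5.14). However, all of the 760 lay in 5 cells, and the 33 lay in 3 cells, with 22 in the highest. When comparison cells with at least 5 tendon UMIs were left out, the log2 ratio was 3.35. The direction for Mmp13 thus rested on comparison cells that also carried tendon markers.

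TGF-β and activin genes were read as ligands, receptors, binding proteins and mediators. Their counts stand beside 3.3% of all genes higher and 7.1% lower. Of 12 ligands measured, Inhba was higher and 5 lower, among them Bmp4 (log2 ratio -1.99), Bmp2 (-1.19) and Gdf10 (-2.56), while Tgfb1 (-0.24), Tgfb2 (0.44) and Tgfb3 (0.43) were within 2-fold. Of 9 receptors 0 were higher, Tgfbr3 (-1.24) and Acvr1b (-1.14) were lower, and Tgfbr1 (-0.48) and Tgfbr2 (-0.49) were within 2-fold. Tgfbr3 was at -0.90 in Lrrc15-positive cells that also met the Pdgfra limit. Among 13 binding proteins, Grem1, a secreted BMP antagonist, gave 63 UMIs in Lrrc15-positive cells and 0 in comparison cells, at least 13.7-fold higher against a floor of 3 counts for the class. However, 85.7% of its UMIs lay in 5 cells. Ltbp4 (-1.60), Chrdl1 (-1.10) and Bambi (-1.02) were lower, though Chrdl1 was at -0.02 when comparison cells with tendon UMIs at the limit were left out, and Bambi was within 2-fold in 9 of 21 alternatives.

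Of 16 intracellular mediators and targets of TGF-β, Tgfbi was the single one past 2-fold, while the feedback genes Pmepa1 (-0.06), Smad7 (-0.39) and Skil (-0.32) were not, and the list's median log2 ratio was -0.31. None of 15 measured genes of YAP and TEAD passed 2-fold in either direction, beside 10.4% of all genes, with a median of -0.08. Its immediate targets Ccn1 (-0.91), Ccn2 (-0.77) and Ankrd1 (-0.29) were below 0. With at least 5 Lrrc15 UMIs Ccn1 (-1.45) and Ccn2 (-1.20) were past 2-fold, and with at least 1 UMI Ankrd1 was at 0.94. Of 18 Wnt genes, Dkk3 (330 UMIs against 38, 2.50) and Wnt5b (1.47) were higher, and the antagonists Sfrp4 (-3.15) and Wif1 (1 UMI against 45) were lower. The shares over all genes were 3.3% higher and 7.1% lower.

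Of 29 secreted signals to muscle and immune cells measured, 5 were higher and 9 lower, beside 3.3% and 7.1% of all genes. The higher ones were neuregulin Nrg1 (24.0 CPM against 5.98, log2 ratio 2.01), the PDGF ligands Pdgfc (48.9 against 13.4, 1.86) and Pdgfa (103 against 31.1, 1.74), midkine (Mdk, 1.12) and pleiotrophin (Ptn, 1.11). The 9 lower ones included the eosinophil chemokine Ccl11 (36.9 CPM against 221, -2.58), Cxcl14 (393 against 2075, -2.40), interleukin 6 (Il6, 48.1 against 172, -1.84), Tslp (-1.99), Il33 (-1.14), Csf1 (-1.14) and the fibroblast growth factors Fgf2 (-1.58) and Fgf18 (-1.48). In Lrrc15-positive cells that also met the Pdgfra limit, Mdk (0.55), Ptn (0.72), Csf1 (-0.73) and Il33 (-0.96) were within 2-fold. The monocyte chemokines Ccl2 (-0.50) and Ccl7 (-0.94) and the neutrophil chemokine Cxcl1 (-0.37) were within 2-fold. Igf1, a growth factor for muscle, was within 2-fold (-0.20), while of its 10-gene list Igfbp3 was higher (1.45) and Igfbp6 lower (-1.03).

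Genes of the resting or adventitial fibroblast state were mostly lower. Of 16, 12 were at least 2-fold lower, beside 7.1% of all genes, 0 were higher and the median log2 ratio was -1.56. Pi16 stood at 37.1 CPM against 267 (-2.85, interval -3.01 to -2.69), Clec3b at 49.1 against 296 (-2.59), the lipid carrier Apod at 61.1 against 392 (-2.68), and the actin-severing protein Gsn at 342 against 1565 (-2.19). Ly6a stood at 829 CPM against 1855 (-1.16), and Dpt (-0.47) and Mfap5 (-0.21) were within 2-fold. Ly6a was also within 2-fold (-0.67) in Lrrc15-positive cells that met the Pdgfra limit. In the sham Pdgfra cells Gsn stood at 26917 CPM and Dcn at 26425, so for these genes the order ran from sham Pdgfra cells through MOV Pdgfra cells to Lrrc15-positive cells.

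**Figure D5:**
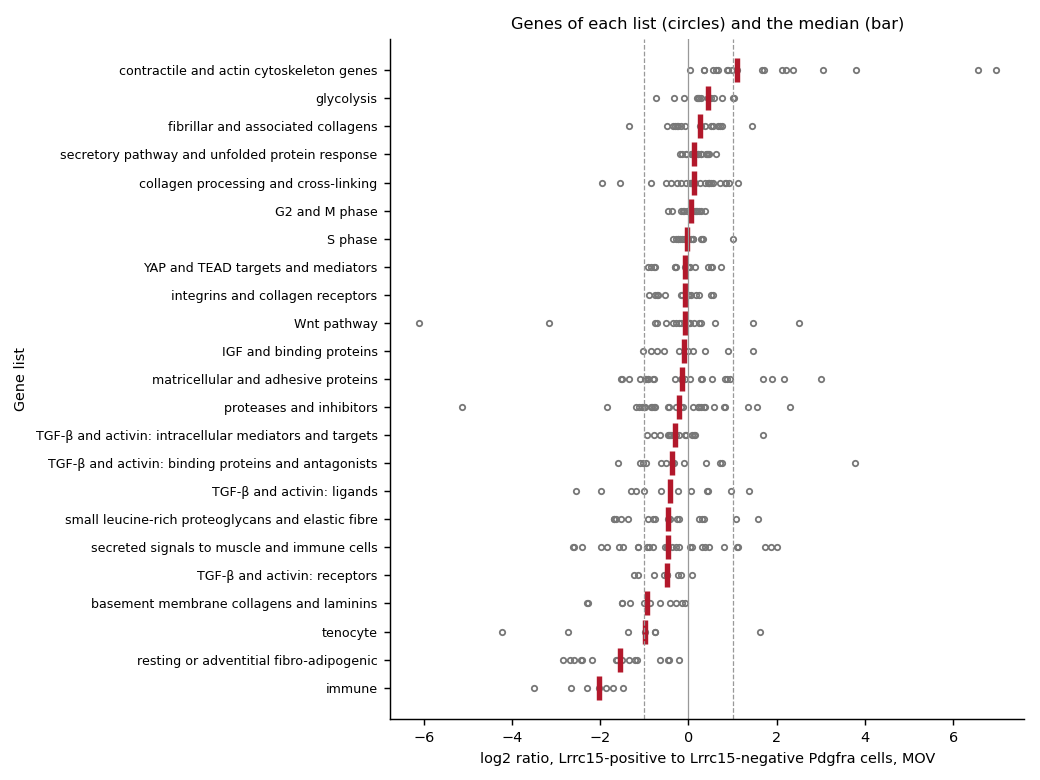
Log2 ratio of the level in Lrrc15-positive cells to that in Lrrc15-negative Pdgfra cells of MOV (x axis) for the measured genes of each list drawn (y axis, circles, genes of the rule left out) and the list's median (red bar), with dashed lines at 2-fold. Some lists were not drawn, among them the activated fibroblast markers, whose median outside the rule was 1.25. Among the lists drawn, contractile genes had the highest median, 1.09, and the adventitial (-1.56) and immune (-2.03) lists the lowest.

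The comparison cells carried RNA of other cell types. All 7 measured immune markers were at least 2-fold lower in Lrrc15-positive cells, where the 8 summed to 63.4 CPM against 281, and Ptprc, which encodes CD45, was at 0.487 CPM against 5.53. Of the 209 comparison cells 15 held at least 5 immune UMIs, against 4 of the 239 Lrrc15-positive cells. Without these cells 0 of 5 immune markers passed 2-fold, the count of lower genes went from 852 to 713 and that of higher genes from 396 to 406. Tendon markers also differed, since 14 comparison cells held at least 5 tendon UMIs. Scx, a transcription factor of tendon progenitors, was nevertheless higher in Lrrc15-positive cells (111 CPM against 35.7, log2 ratio 1.63, interval 1.43 to 1.84). Of 22 transcription factors of fibroblast states, 1 was higher and 4 lower, beside 3.3% and 7.1% of all genes. The log2 ratio of Scx was 0.67 for the 114 cells that also met the Pdgfra limit. Over all Lrrc15-positive cells, Klf2 (-1.25) and Meox1 (-1.33) were lower and Runx1 (-0.01) was level. In the 114 cells Klf2 (-0.97) and Meox1 (-0.98) were within 2-fold.

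The genes of the sort were seen as RNA. In Lrrc15-positive cells Vcam1 stood at 129 CPM, Ly6a at 829, Pecam1, which encodes CD31, at 3.31 and Ptprc at 0.487. Ly6a was found in 82.4% of these cells, and in 43.1% after thinning, although the gate excluded cells with SCA1 on the surface. RNA and surface protein were not measured in the same cells.

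Against the tendon-marker cells of MOV, which were the other Lrrc15-bearing class, 7.89% of 11643 genes were higher and 6.75% lower in the Lrrc15-positive cells, with a median log2 ratio of 0.09. All 7 tenocyte genes outside the rule were at least 2-fold lower, as Comp (-6.14), Fmod (-4.38), Thbs4 (-2.12) and Scx (-2.05). Since Tnmd, Chad and Kera split these classes, lower levels of genes that go with them follow from the choice of cells. The activated fibroblast markers were closer, with 0 of the 4 past 2-fold: Cthrc1 gave 0.51, Thbs2 0.44, Inhba 0.93 and Aspn 0.26. Contractile genes were also closer, with 3 of 19 higher, namely Cnn1 (1.89), Actg2 (1.39) and Acta2 (1.04). Adventitial genes were the reverse of the first comparison, with 9 of 16 higher, among them Ly6a (2.77), and 3 lower.

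The tendon-marker class was itself mixed. Of its 156 cells, 42 (26.9%) had at least 2 Lrrc15 UMIs and 103 had 0. The 42 stood at 3463 CPM for Cthrc1 and 1811 CPM for Acta2, near the Lrrc15-positive cells (2409 and 1853). The 103 stood at 359 and 281 CPM. Of the 42 cells that the tendon limit removed, the 15 nearest to it, with 5 to 9 tendon UMIs, stood at 3396 CPM for Cthrc1 and 2080 CPM for Acta2, so the limit did not fall at a break in these 2 genes.

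Among genes chosen by size alone, the 12 highest by the interval bound nearest 0 were Actg2, Cnn1, Gzmd, Acta2, Grem1, Eva1a, C1qtnf3, Cd59a, Gzmc, Gzme, Myl9 and Ccl20. C1qtnf3, a secreted protein of the C1q and TNF family, was widespread, with 591 CPM against 63.3 (log2 ratio 3.22, interval 3.08 to 3.37) and UMIs in 83.7% of cells. C1qtnf3 was not particular to these cells, at 742 CPM in tendon-marker cells and 272 CPM in MOV Pax7 cells. Cd59a, which shields cells from complement, gave 458 UMIs against 24 (3.64). The granzymes, serine proteases best known from cytotoxic lymphocytes, gave 565 UMIs against 7 for Gzmd (5.72, 4.67 to 7.04), 128 against 4 for Gzmc (4.38) and 713 against 43 for Gzme (3.44). They were found in 23.4%, 26.4% and 32.6% of the Lrrc15-positive cells, while Ptprc was found in 1.26%. Gzmc, Gzmd and Gzme are related genes on chromosome 14, where Gzmc lies apart from Gzmd and Gzme. The split of reads between these genes is uncertain. Ccl20, a chemokine, rested on few cells, with 78.9% of its 365 UMIs in 5 cells.

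The 12 lowest were Cxcl13, Mmp13, Sfrp5, Angptl7, Myoc, H2-Aa, Fmo2, H2-Eb1, Il1b, Wif1, Ccl4 and Cd74. Myoc, a secreted protein, was spread over cells, with 43 UMIs against 557 (log2 ratio -4.31) and UMIs in 31.6% of comparison cells. Most of the others rested on few comparison cells: 5 cells held 97.8% of the UMIs of Cxcl13, 99.4% of Sfrp5 and 92.6% of Cd74. H2-Aa, H2-Eb1, Il1b, Ccl4 and Cd74 are genes of immune cells. Without the cells that held at least 5 immune UMIs the log2 ratio was 0.11 for both H2-Aa and Cd74, -0.87 for Ccl4 and -1.08 for H2-Eb1, and Il1b did not reach the UMI minimum. Angptl7, Mmp13 and Wif1 were also high in tendon-marker cells, at 519, 281 and 60.0 CPM.

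The genes whose level followed Lrrc15 most closely over 6 classes of cells by Pearson's r were Grem1 (0.995), Cd59a (0.987), Lgi1 (0.985), Actg2 (0.984), Mmp12 (0.982), Far2os1 (0.980), Cnn1 (0.979), 4833412C05Rik (0.978), Wdr6 (0.978) and Odaph (0.977). The classes were the 3 MOV classes above, MOV Pax7 cells, sham Pdgfra cells and sham Pax7 cells, and a high r here mostly says that a gene was read in Lrrc15-positive and tendon-marker cells and little elsewhere. Of the 10, Cd59a, Actg2 and Cnn1 had 458 to 763 UMIs in the Lrrc15-positive cells, while Lgi1, Mmp12, 4833412C05Rik and Odaph had 28 to 33.

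Proliferation genes were near level between the Lrrc15-positive cells and the other Pdgfra cells. Of 15 genes of G2 and M phase 0 passed 2-fold (median log2 ratio 0.06), and of 15 S phase genes Ung alone did (1.01). Over all genes 10.4% passed 2-fold either way, so these counts of 15 genes say little by themselves. Mki67 stood at 67.9 CPM against 87.8, and after thinning 9.21% of Lrrc15-positive and 9.57% of comparison cells held a Mki67 UMI. Against tendon-marker cells 14 of 15 G2 and M genes were higher, beside 7.89% of all genes. After thinning 1.92% of tendon-marker cells held a Mki67 UMI. Genes of the secretory pathway were level (0 of 20 past 2-fold, median 0.14), and glycolysis genes leaned up, with Slc16a3 (1.03) and Pfkl (1.01) just past 2-fold of 15 and a median of 0.44. None of 14 integrins and collagen receptors passed 2-fold. With 10.4% of all genes past it, counts of 0 in lists this short say little.

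The 24 Pdgfra cells of sham gave the level without load, from 266078 UMIs. Cthrc1 gave 3 UMIs there (11.3 CPM, Poisson interval 2.33 to 33.0), Postn 0 UMIs and Tnc 4 (4.10 to 38.5 CPM). Lrrc15-negative Pdgfra cells of MOV stood at 1087, 5361 and 889 CPM for the same genes, and Lrrc15-positive cells at 2409, 7796 and 1693. As a ratio, the step from sham to MOV Pdgfra cells was larger for Cthrc1 and Tnc than the step from those to Lrrc15-positive cells, while Acta2 (41.3, 133 and 1853 CPM) had the larger step between the MOV classes. Surgery, library and animals cannot be told apart in this comparison.

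The single sham cell that met the rule had 5 Lrrc15 and 8 Pdgfra UMIs. It held 90 UMIs of Cthrc1 (2547 CPM) and 115 of Postn (3254 CPM), but 3 of Acta2 (84.9 CPM), 1 of Tagln and 0 of Inhba and Cnn1. It also held 165 UMIs of Ly6a (4669 CPM). Its Acta2 level was below the 133 CPM of the Lrrc15-negative Pdgfra cells of MOV, and its Ly6a level above their 1855 CPM. For both genes the cell lay outside the range of the MOV sets by Lrrc15 UMIs, on the side of the sets with few.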

How the data were processed

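Single-cell RNA-seq counts of sorted plantaris cells were taken from 1 sham and 1 MOV library. Per the labels and the study's methods, the authors aligned reads to mm10 with Cell Ranger 6.0.0, and the deposited matrices hold UMI counts per gene and cell for 32285 genes. The submitters' notes also name R 4.0.2 and Seurat 4.0.2, whose output was not used here.

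Cells were put into classes by UMIs of the genes given above, and the UMIs of each gene over all cells of a class, as a share of the class total, gave its CPM. Log2 ratios carry exact conditional intervals, single levels exact Poisson intervals and shares Clopper-Pearson intervals, all at 95% and for counting error only. A gene was measured with at least 20 UMIs in both classes together and called at 2-fold. Against a class at 0, the ratio is a bound from 3 counts for the class. For thinned shares each cell was drawn down to 2000 UMIs. With 1 library per condition no test was made, and cells were not used as replicates.

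Text genes came from 33 fixed lists of 444 genes, from the 12 highest and 12 lowest by the interval bound nearest 0, and from the 10 most like Lrrc15 over 6 classes. Members and lists were chosen with earlier results of these data known. Doublets were kept. An alternative left out 75 MOV and 4 sham cells with the highest simulated-doublet scores. Other alternatives changed the cell limits, the scaling (edgeR 4.0.16 TMM and DESeq2 1.42.0 size factors, as factors only), the UMI minimum per gene and the weighting of cells. Leaving out shared barcodes or cells with immune UMIs was chosen after seeing the data. Calculations used Python 3.11.15, numpy 2.4.6, scipy 1.17.1, pandas 2.3.3, scanpy 1.11.5 and R 4.3.3, and scripts were tested on simulated data. Promoters came from RefSeq (GRCm38.p6).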

Additional observations from a re-analysis of the deposited data

Results flagged for a closer look

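Cells outside the rule also held Lrrc15. In MOV, 17 cells that passed the mitochondrial and UMI limits held at least 2 Lrrc15 UMIs and a Pax7 UMI, 1.34% of 1268 cells with a Pax7 UMI, against 0 of 82 such cells in sham, which allows a share of up to 3.66%, above the MOV share. They stood at 2194 CPM for Acta2 and 2900 CPM for Cthrc1, with a median of 46665 UMIs per cell. A further 15 MOV cells with at least 2 Lrrc15 UMIs failed the mitochondrial or UMI limit, 14 of them the mitochondrial one, against 0 of 522 sham cells that failed, which allows a share of up to 0.575%. Both counts were flagged because the signal lay in cells that the comparisons did not use and sham held 0. For the cells with Pax7 a difference from sham was not detectable at this depth. Their source was not tested.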

How the results depend on the processing

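The number of Lrrc15-positive cells depended on the limits. It was 146 in MOV with at least 5 Lrrc15 UMIs and 114 when Pdgfra was also required, and in sham it was 3 with at least 1 Lrrc15 UMI and 0 without shared barcodes.

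Against Lrrc15-negative Pdgfra cells, 396 genes were higher and 852 lower. Thinning gave 214 and 408, no UMI minimum per gene 776 and 1842, and a minimum of 100 UMIs 161 and 382. Against tendon-marker cells 919 were higher and 786 lower. Thinning gave 452 and 366, a minimum of 100 UMIs 418 and 354, no minimum 1280 and 1871, and no tendon limit 1540 higher genes. Fewer genes reach a UMI minimum after thinning.

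Of 142 genes named in the text and tested against Pdgfra cells, 105 were past 2-fold and 74 stayed past it in each of the alternatives run for them. The other 31 came within 2-fold in at least 1 alternative. When Pdgfra was also required of the Lrrc15-positive cells, these included Actn1, Fbln1, Bmp2, Igfbp6, Slc16a3 and Pfkl. Among the 105, the log2 ratio changed sign for Col11a2 (0.71 with no tendon limit), for Mmp13 (3.35 with the tendon limit in comparison cells too), and for H2-Aa and Cd74 (both 0.11 without cells with immune UMIs). Of genes within 2-fold, Fmod went from -0.77 to 1.72 with the tendon limit in comparison cells too. Contractile genes had 9 to 13 higher and 0 lower, and adventitial genes 9 to 13 lower and 0 higher, over these alternatives. TMM and median-of-ratios scaling moved the ratios by at most 0.09. Against tendon-marker cells this turned the balance to 810 higher and 887 lower and to 803 and 890. The balance there also turned with at least 5 Lrrc15 UMIs (753 and 857) and with no UMI minimum per gene (1280 and 1871).

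No paired analysis was possible because each condition has 1 library. Leaving out a replicate was not possible for the same reason, and the alternative restricted to cells with Xist and no Y-linked UMI was not run, since 0 cells met it.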
